A study of Arabidopsis thaliana with 29 samples.

Results

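The genes described here are nuclear Arabidopsis thaliana genes whose transcripts were next to absent from WT seedlings and present in every fusca library. A gene was taken when its raw read count was at most 3 in each of the 3 WT libraries and at least 30 in each of the 3 fusca libraries, and 54 of 28496 nuclear genes met both limits. The genes were thus chosen by their fusca and WT counts, and that contrast is given as a description without a test. The level in the third group, GFP-HY5, the chromosome and the identity of the genes played no part in the choice.

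The fusca group has the genotype 2x35S::GFP-HY5/hy5 with the fusca phenotype, a name for dark-pigmented seedlings of constitutively photomorphogenic mutants. The GFP-HY5 group has the same genotype without that remark in its labels. Both carry a hy5 mutation and a construct in which a 35S promoter, a viral promoter active in most plant tissues, drives HY5 fused to green fluorescent protein. WT is the untransformed comparison. All groups were 7-day-old seedlings kept in white light of 100 umol m-2 s-1 for 16 h with 8 h of darkness, after 3 days of stratification at 4 °C, with a sucrose label of 0.01. The labels give neither the number of transformed lines nor whether seedlings were pooled, so p-values measure the spread between these libraries only.

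HY5 is a bZIP transcription factor that promotes seedling development in light, and COP1 and DET1 act to keep its protein low in darkness. A gene can be silent in a seedling because its promoter is methylated and packed into heterochromatin, as is common around plant centromeres where transposable elements are dense. It can also be silent because it is used in another organ, in pollen or seed for instance, or only under stress.

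Polyadenylated RNA was sequenced, and the table held 11860094 to 12545563 counts over loci per library. The 3 GFP-HY5 columns were identical in all 60004 rows and were counted as 1 library, so no value for GFP-HY5 has a replicate error. Levels are CPM on TMM-scaled library sizes, and per-library values are given in the order of replicates 1, 2 and 3. HY5 itself stood at 129, 186 and 130 CPM in fusca, at 77.3 in GFP-HY5, and at 14.1, 16.1 and 12.1 in WT. Transcripts of the green tissue list (6 genes, among them RBCS1A of the Rubisco small subunit and the antenna gene LHCB1.3) summed to 1171 to 2566 CPM in fusca, 38529 in GFP-HY5 and 41295 to 50225 in WT. Of 21820 loci tested in fusca against WT, 7651 (35.1%) passed an adjusted p of 0.05 in edgeR's quasi-likelihood test, 16.7% higher and 18.4% lower in fusca. Of the 20317 nuclear genes tested 34.7% passed, 15.9% higher and 18.8% lower; all 54 genes passed, as their choice required.

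The 54 genes are described in sets cut by count limits on the GFP-HY5 library, the limits of the choice itself. There was no gap at the upper limit, and shares of the fusca level cross the sets. In that library 23 genes had at least 30 counts, as in fusca, and 22 had at most 3 counts, as in WT. The remaining 9 had 4 to 25 counts. Of all 7011 nuclear genes with at most 3 counts in every WT library, 0.770% had at least 30 counts in every fusca library, 0.357% had at least 30 in GFP-HY5 and 97.1% had at most 3 in GFP-HY5. The GFP-HY5 level has no replicate check, and in whole seedlings a change in the number of cells that use a gene and a change in RNA per cell cannot be told apart.

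**Figure D1:**
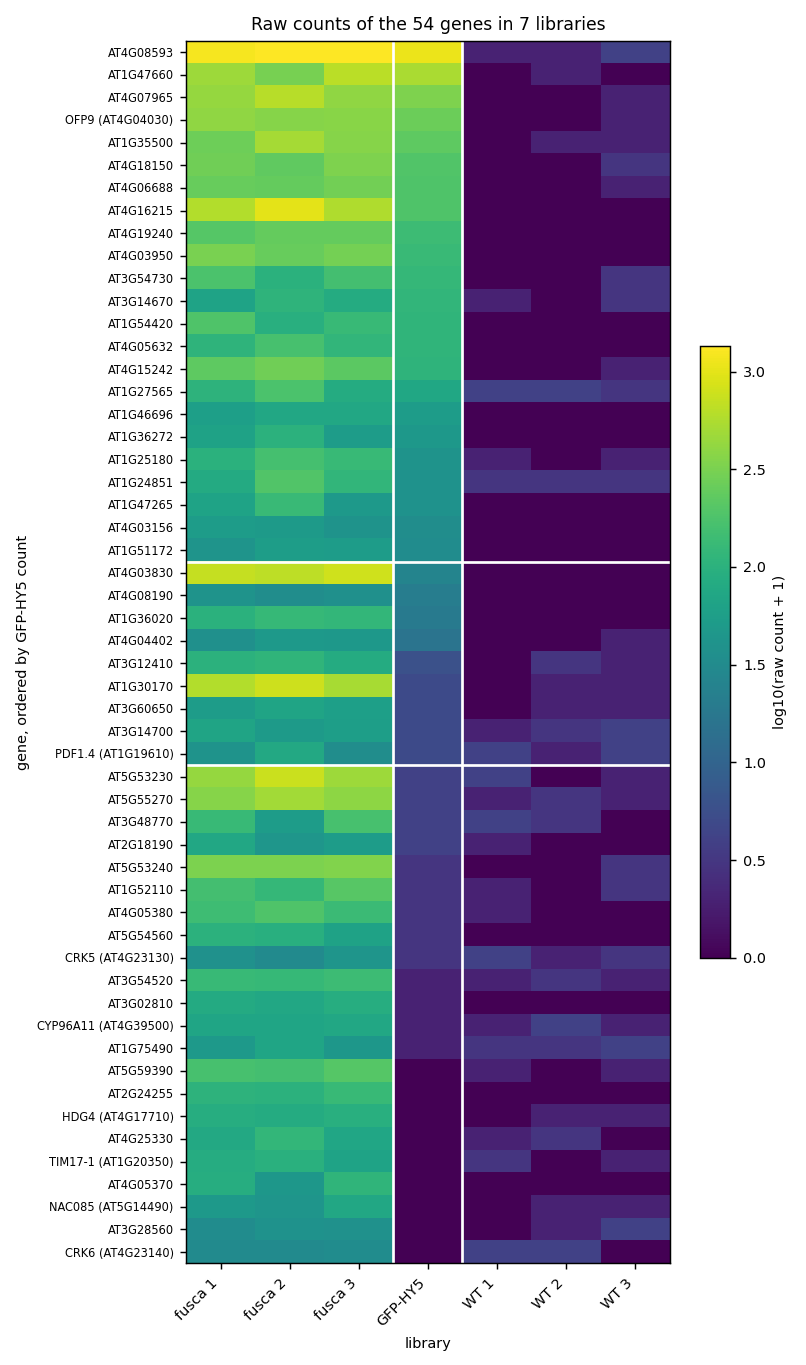
Raw counts of the 54 genes, shown as log10(count + 1), in 3 fusca libraries, 1 GFP-HY5 library and 3 WT libraries, with genes ordered by their GFP-HY5 count. White lines part the 23 genes with at least 30 counts in GFP-HY5, the 9 with 4 to 25 and the 22 with at most 3.

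Summed over the 23 genes with at least 30 counts in GFP-HY5, the level was 386, 492 and 411 CPM in the fusca libraries, 370 in GFP-HY5, and 0.723, 0.721 and 1.91 in the WT libraries. On these TMM-scaled sizes the GFP-HY5 sum lay just under the lowest fusca library. The set was cut by GFP-HY5 counts of at least 30, so nothing is read from how close the sums lie. AT4G08593 alone gave 97.1 of the 370 CPM. That closeness depends on the scaling, with TMM factors of 1.107 to 1.257 in fusca and 0.911 in GFP-HY5. In raw counts the sums were 5732, 6787 and 6142 in fusca and 4198 in GFP-HY5, at similar library totals. Summed over the 22 genes with at most 3 counts in GFP-HY5, the level was 188, 228 and 202 CPM in fusca, 2.29 in GFP-HY5, and 2.17, 1.80 and 2.01 in WT. Here the limit that made the set keeps the GFP-HY5 sum near WT. The 9 genes between summed to 116, 142 and 117 CPM in fusca, 8.72 in GFP-HY5, and 0.361, 0.631 and 1.01 in WT.

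**Figure D2:**
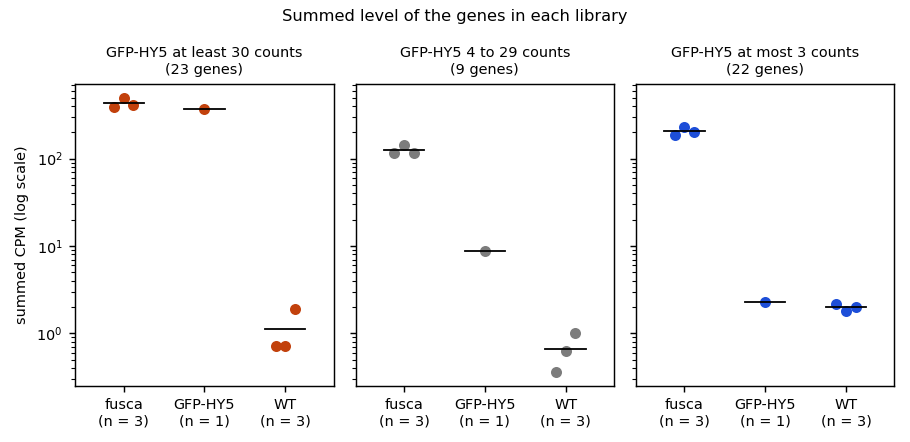
Summed CPM (log scale) of the genes of each set in fusca (n = 3 libraries), GFP-HY5 (n = 1) and WT (n = 3), with a point per library and a line at the mean. In the first set GFP-HY5 stands at 370 CPM and in the last at 2.29 CPM, a low sum that the count limit of that set fixes.

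Among the 23 genes with at least 30 counts in GFP-HY5, the single library lay within the fusca range for 12, below all fusca libraries for 9 and above them for 2. These places rest on the TMM scaling, and raw counts give a different split. Unscaled, most of the 12 fell below every fusca library, AT4G08593, AT4G07965 and AT1G46696 among them. Only AT1G54420, AT3G54730 and AT4G05632 of the 12 stayed inside the fusca range. AT1G47660, above all fusca libraries after scaling, was inside that range without it. On TMM-scaled CPM the GFP-HY5 library lay below every fusca library for 40 of all 54 genes (32.2% over nuclear genes tested). The choice of genes with high fusca counts favours that order, and nothing is read from these shares. The median GFP-HY5 level of the 23 was 85.6% of the fusca level, with a range of 32.6% to 170%. On the log2 scale (CPM with a prior count of 2) the median of GFP-HY5 minus fusca was -0.21 for these 23 genes, -2.99 for the 9 between and -5.003 for the 22, and -2.85 over all 54.

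The most abundant of the 54 transcripts was AT4G08593, which RefSeq lists as a protein-coding gene without a descriptive name. It had 1209, 1343 and 1323 counts in fusca, 1102 in GFP-HY5, and 1, 1 and 3 in WT. Its fusca mean was 89.1 ± 8.01 CPM (SD, n = 3) and its GFP-HY5 level 97.1 CPM. That level was inside the fusca range on TMM-scaled CPM, though its raw count was below every fusca count. Its ratio of fusca over WT, on the counts that chose it, was 571. AT4G07965 had 430, 618 and 401 counts in fusca, 337 in GFP-HY5, and 0, 0 and 1 in WT. AT1G35500 had 276, 504 and 366 counts in fusca, 226 in GFP-HY5, and 0, 1 and 1 in WT. AT4G07965 averaged 33.5 ± 9.84 CPM in fusca and stood at 29.7 in GFP-HY5 (SD, n = 3). AT1G35500 averaged 26.5 ± 9.16 in fusca and stood at 19.9 in GFP-HY5 (SD, n = 3). Both GFP-HY5 levels were inside the fusca range on TMM-scaled CPM, though both raw counts were below every fusca count.

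OFP9 (AT4G04030), a member of the ovate family of transcriptional repressors, is the only gene of this set with a RefSeq symbol. It had 402, 362 and 376 counts in fusca, 264 in GFP-HY5, and 0, 0 and 1 in WT. The fusca libraries lay close together, with a mean of 26.2 ± 0.977 CPM (SD, n = 3), and GFP-HY5 lay below all of them at 23.3 CPM, 88.9% of fusca (exact 95% interval 77.5% to 102%).

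The genes with the highest GFP-HY5 level relative to fusca were AT3G14670, AT1G47660, AT4G05632, AT4G08593 and AT3G54730. AT3G14670 had 64, 108 and 83 counts in fusca, 113 in GFP-HY5, and 1, 0 and 2 in WT. AT1G47660 had 471, 310 and 642 counts in fusca, 531 in GFP-HY5, and 0, 1 and 0 in WT. These are the 2 genes whose TMM-scaled GFP-HY5 CPM exceeded every fusca library. They stood at 170% (exact 95% interval 135% to 213%) and 143% (129% to 158%) of the fusca level. For AT3G14670 the raw GFP-HY5 count was also above every fusca count. For AT1G47660 the order rests on the scaling, as its raw GFP-HY5 count of 531 was below the highest fusca count of 642. AT4G05632 and AT3G54730 were at 110% and 108%, inside their fusca ranges. AT1G47660 overlaps another RefSeq gene, so its count is uncertain.

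At the other end of the 23, AT4G16215 was the gene with the largest shortfall in GFP-HY5. It had 587, 999 and 570 counts in fusca, 183 in GFP-HY5, and 0 in every WT library. The fusca mean was 50.04 ± 19.4 CPM (SD, n = 3), at least 178-fold above a floor of 3 counts per WT library, and GFP-HY5 stood at 16.1 CPM, 32.6% of fusca. Per kilobase of RefSeq gene length AT4G16215 and AT4G08593 were the most abundant, at 84.8 and 79.4 CPM per kb in fusca, followed by AT1G35500 at 52.0. Gene length includes introns, so these per-length levels are approximate.

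**Figure D3:**
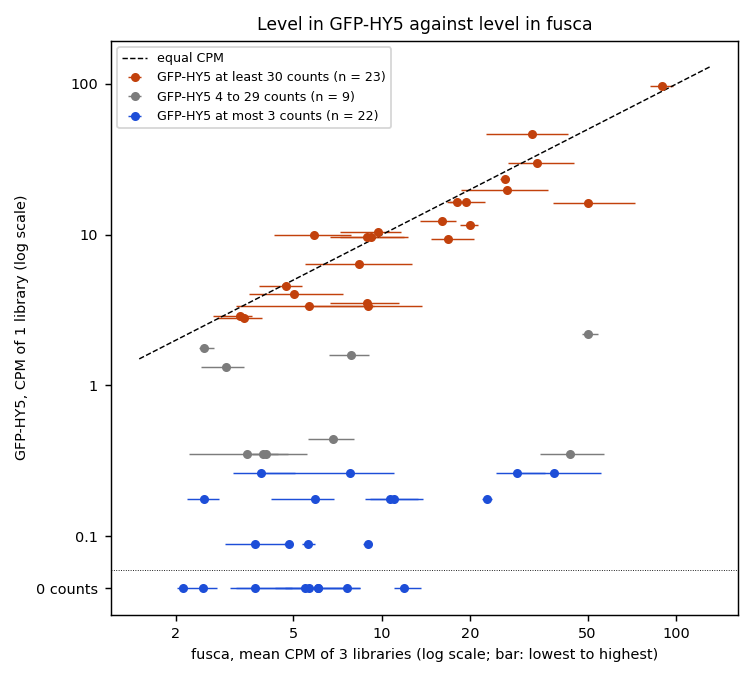
GFP-HY5 CPM (1 library) against mean fusca CPM (3 libraries, bars from lowest to highest) for the 54 genes, both on log scales, with genes at 0 counts in GFP-HY5 under the dotted line. The 23 genes in orange, cut by high counts in both groups, lie at 32.6% to 170% of the fusca level on TMM-scaled CPM. The 22 in blue, held at or under 0.264 CPM by their count limit, have fusca levels up to 38.6 CPM.

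The 22 genes with at most 3 counts in GFP-HY5 ranged from 2.11 to 38.6 CPM in fusca, so they include abundant transcripts. AT5G53230 had 429, 764 and 469 counts in fusca, 3 in GFP-HY5, and 3, 0 and 1 in WT. Its neighbour AT5G53240 had 326, 326 and 342 counts in fusca, 2 in GFP-HY5, and 0, 0 and 2 in WT. AT5G55270 had 363, 492 and 396 counts in fusca, 3 in GFP-HY5, and 1, 2 and 1 in WT. That fusca stood above GFP-HY5 and WT in these genes was fixed by the count limits. GFP-HY5 was at 0.693% of fusca for AT5G53230 (exact 95% interval 0.143% to 2.03%), at 0.773% for AT5G53240 (0.0935% to 2.80%) and at 0.921% for AT5G55270 (0.190% to 2.70%).

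AT5G59390 had 163, 153 and 203 counts in fusca, 0 in GFP-HY5, and 1, 0 and 1 in WT. With a floor of 3 counts its GFP-HY5 level was at most 2.22% of fusca. In all, 9 of the 22 genes had 0 counts in GFP-HY5. AT1G30170 had 581, 786 and 516 counts in fusca, 4 in GFP-HY5, and 0, 1 and 1 in WT. Its GFP-HY5 level was 0.816% of fusca (exact 95% interval 0.222% to 2.09%), a share like those of the 22 genes, although 4 counts place it among the 9 between. It overlaps another RefSeq gene, so its count is uncertain.

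Of those 9 genes, 4 were at 4.40% to 70.5% of fusca with 15 to 25 counts in GFP-HY5 and the other 5 had 4 or 5 counts. AT4G03830 had 714, 661 and 808 counts in fusca, 25 in GFP-HY5, and 0 in every WT library. The fusca mean of 50.03 ± 3.46 CPM (SD, n = 3) was at least 178-fold above the floor of 3 counts per WT library, and GFP-HY5 stood at 2.20 CPM, 4.40% of fusca (exact 95% interval 2.84% to 6.51%). AT4G08190, with 40, 33 and 36 counts in fusca, 20 in GFP-HY5 and 0 in every WT library, was at 70.5% of fusca (41.4% to 114%).

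Few of the genes have a descriptive name. RefSeq matched 53 of the 54 identifiers, and 8 of these (15.1%) carry a symbol other than the locus identifier, where the share was 21.6% among nuclear genes with at most 3 counts in every WT library and 46.2% among the other 3180 nuclear genes higher in fusca. Of the 53, 52 are listed as protein-coding and AT4G15242 as a non-coding RNA. AT4G05370 has no entry. Of the 8 symbols, 6 belong to the 22 genes with at most 3 counts in GFP-HY5, 1 to the 23 genes with at least 30 (OFP9) and 1 to the 9 between (PDF1.4).

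The named genes include a transporter subunit, an enzyme and receptors. TIM17-1 (AT1G20350), a channel subunit of the complex that takes proteins across the inner mitochondrial membrane, had 85, 96 and 65 counts in fusca, 0 in GFP-HY5, and 2, 0 and 1 in WT. CYP96A11 (AT4G39500), a cytochrome P450, had 69, 68 and 74 counts in fusca, 1 in GFP-HY5, and 1, 3 and 1 in WT. For both genes the count limit of their set held GFP-HY5 near WT. The GFP-HY5 level was at most 4.66% of fusca for TIM17-1 and 1.82% for CYP96A11 (exact 95% interval 0.0459% to 10.3%).

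CRK5 (AT4G23130) and CRK6 (AT4G23140) are neighbouring genes for cysteine-rich receptor-like kinases. CRK5 had 37, 30 and 42 counts in fusca, 2 in GFP-HY5, and 3, 1 and 2 in WT, and CRK6 had 30, 30 and 32 counts in fusca, 0 in GFP-HY5, and 3, 3 and 0 in WT. They are the genes nearest the lower fusca limit, and their fusca over WT ratios, on the counts that chose them, were 13.4 for CRK5 and 11.3 for CRK6. CRK genes belong to a large family of similar copies, and how reads were shared among them is uncertain. AT3G02810, for which RefSeq gives LIP2 (lost in pollen tube guidance) as a synonym, had 81, 74 and 89 counts in fusca, 1 in GFP-HY5 and 0 in every WT library.

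Transcription factors made up another part of the named genes. HDG4 (AT4G17710), a homeodomain protein of the GLABRA2 class, had 89, 83 and 93 counts in fusca, 0 in GFP-HY5, and 0, 1 and 1 in WT. NAC085 (AT5G14490), a NAC domain protein, had 47, 42 and 74 counts in fusca, 0 in GFP-HY5, and 0, 1 and 1 in WT. HDG4 had the most even CPM of the 54 genes across fusca, 6.08 ± 0.121 (SD, n = 3). PDF1.4 (AT1G19610), a plant defensin of the small cysteine-rich peptides, had 40, 77 and 33 counts in fusca, 4 in GFP-HY5, and 3, 1 and 3 in WT, which sets it near both limits.

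Across fusca libraries the ratio of highest to lowest CPM had a median of 1.45 over the 54 genes and 1.45 over nuclear genes tested. It was smallest for HDG4 (1.04), CYP96A11 (1.06) and CRK6 (1.08, as for AT5G53240). It was largest for AT1G47265 (2.94), AT3G48770 (2.91) and PDF1.4 (2.53). AT1G47265 had 65, 130 and 48 counts in fusca, 38 in GFP-HY5 and 0 in every WT library. AT3G48770, which overlaps another RefSeq gene, had 129, 52 and 164 counts in fusca, 3 in GFP-HY5, and 3, 2 and 0 in WT. Fusca replicate 2 was the highest for AT1G47265 and the lowest for AT3G48770. It was the highest library for 31 of the 54 genes (57.4%) and for 46.2% of nuclear genes tested, 16 of the 31 being among the 23 genes with at least 30 counts in GFP-HY5. That library also held the seed transcripts of the fusca group, with 6, 928 and 3 counts of the cruciferin gene CRU3 in replicates 1, 2 and 3, and their part in these values was not tested.

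The WT counts were held at or under 3 per gene and library by the choice. They are given as a description, and nothing is read from their spread over genes or libraries. Over the 23 genes with at least 30 counts in GFP-HY5, WT replicates 1, 2 and 3 held 8, 8 and 19 counts. Over the 22 genes with at most 3 counts in GFP-HY5 they held 24, 20 and 20. In the first set 10 of 23 genes had 0 counts in every WT library, and in the last 4 of 22.

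The genes were uneven over the chromosomes. Chromosome 4 held 21 of the 54 (38.9%), where it holds 14.8% of nuclear genes with at most 3 counts in every WT library and 15.1% of nuclear genes. Chromosome 1 held 16 (29.6%, against 25.7% of the genes silent in WT) and chromosome 3 held 9 (16.7% against 20.4%). Chromosome 5 held 6 (11.1% against 22.3%) and chromosome 2 held 2 (3.70% against 16.8%). Of the 23 genes with at least 30 counts in GFP-HY5, 11 were on chromosome 4, 10 on chromosome 1, 2 on chromosome 3 and 0 on chromosomes 2 and 5. Of the 22 with at most 3 counts in GFP-HY5, 7 were on chromosome 4, 6 on chromosome 5, 4 on chromosome 3, 3 on chromosome 1 and 2 on chromosome 2.

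AGI locus numbers run along each chromosome, so the place of a gene in that order gives its rough position without coordinates. A stretch of chromosome 4, from locus number AT4G03000 to AT4G08999, held 12 of the 54 genes (22.2%), against 2.42% of nuclear genes silent in WT, 1.37% of all nuclear genes and 1.13% of the other nuclear genes higher in fusca. The stretch was chosen after the positions were seen. It held 7 of the 23 genes with at least 30 counts in GFP-HY5, 3 of the 9 between and 2 of the 22. On chromosome 1 the genes with at least 30 counts in GFP-HY5 lay between 35% and 62.9% of the gene order, and on chromosome 4 between 8.8% and 45.5%. The genes with at most 3 counts in GFP-HY5 reached from 28.6% to 92.1% on chromosome 1 and from 13.6% to 98.1% on chromosome 4. No test of these positions was made.

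**Figure D4:**
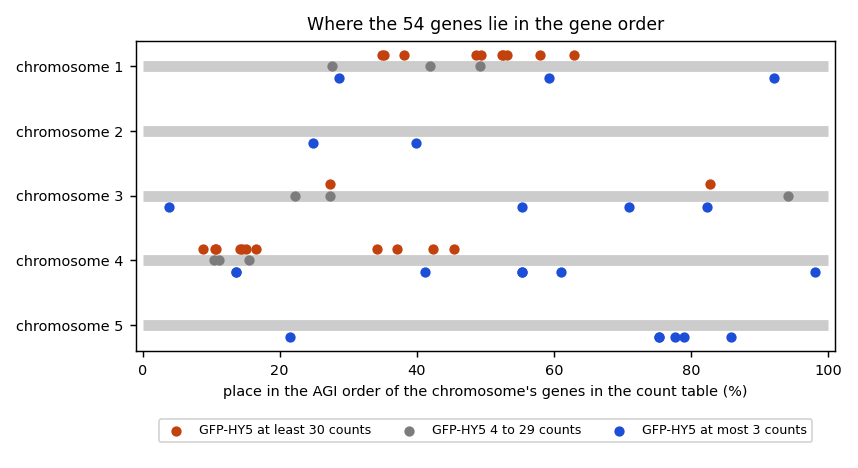
Place of the 54 genes in the AGI order of each chromosome's genes in the count table, from 0 to 100%, coloured by their GFP-HY5 count. The genes with at least 30 counts in GFP-HY5 crowd between 35% and 62.9% on chromosome 1 and below 45.5% on chromosome 4, and chromosome 5 holds 6 genes, all with at most 3 counts in GFP-HY5.

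Transposable-element rows under the same count limits differed from the genes in their GFP-HY5 level. Of the 54 genes 42.6% had at least 30 counts in GFP-HY5 and 40.7% at most 3, against 83.1% and 3.08% of 130 transposable-element rows. These are shares of rows, with no share over all transposable-element rows silent in WT beside them. The limits turned round, with at least 30 counts in every WT library and at most 3 in every fusca library, found 33 nuclear genes.

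Next to the 54 genes, 102 other genes were the nearest on either side in the RefSeq order. Of the 70 that could be tested, 20 (28.6%) were higher in fusca and 9 lower, where 15.7% of all other nuclear genes tested were higher. The share was 8 of 34 beside the 23 genes with at least 30 counts in GFP-HY5 and 10 of 25 beside the 22 with at most 3. Of the 102, 31 (30.4%) had at most 3 counts in every WT library, against 24.6% of all nuclear genes. These calls come from the libraries that chose the 54 genes.

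Only 4 of the 54 genes had another as a RefSeq neighbour, CRK5 with CRK6 and AT5G53230 with AT5G53240. AT4G05380, with 143, 183 and 136 counts in fusca, 2 in GFP-HY5, and 1, 0 and 0 in WT, follows AT4G05370 in AGI number. AT4G05370 had 87, 44 and 111 counts in fusca and 0 in GFP-HY5 and every WT library. Of the 70 tested neighbours outside the 54, 20 rose, 9 fell and 41 were not called. DRT112, next to TIM17-1, fell most (log2 fold change of fusca over WT -4.06, edgeR adjusted p = 6.2e-06). The 2 largest rises follow. AT1G30160, next to AT1G30170 and overlapping it, had 212, 294 and 206 counts in fusca, 7 in GFP-HY5, and 4, 2 and 1 in WT (log2 fold change of fusca over WT 6.18, edgeR adjusted p = 3.1e-06). AT3G28570, next to AT3G28560, had 74, 69 and 113 counts in fusca, 2 in GFP-HY5, and 0, 2 and 4 in WT (4.89, edgeR adjusted p = 9.3e-05).

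A block on chromosome 1 between locus numbers AT1G24800 and AT1G25199, chosen after its values were seen, held 2 of the 23 genes and 2 that just missed the WT limit. AT1G24851 had 81, 189 and 115 counts in fusca, 38 in GFP-HY5, and 2, 2 and 2 in WT, and AT1G25180 had 99, 158 and 129 counts in fusca, 40 in GFP-HY5, and 1, 0 and 1 in WT. AT1G25025 had 147, 317 and 195 counts in fusca, 58 in GFP-HY5, and 2, 4 and 2 in WT, and AT1G25112 had 142, 268 and 174 counts in fusca, 57 in GFP-HY5, and 1, 4 and 4 in WT. All 4 had fusca replicate 2 as the highest library and GFP-HY5 below every fusca library. The other 12 loci of the block with at least 30 counts in a library included LpxC2, LpxC3 and LpxC4 and did not pass the threshold, with edgeR adjusted p-values of 0.112 to 0.736. Several loci of the block are similar copies, as the numbered LpxC symbols show, so the division of its reads is uncertain.

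None of the 54 genes was on the lists of related genes, which were tested in the same fit. Only 54 of 28496 nuclear genes were chosen, so short lists would rarely hold 1, and nothing is read from this absence. The root, green tissue and silencing lists held 0 genes with at most 3 counts in every WT library, so they could hold no member. On the mitochondrial dysfunction list, genes known to be induced when mitochondrial respiration is disturbed, 12 of 15 tested loci rose in fusca and 0 fell (edgeR). Over all loci tested 16.7% rose and 18.4% fell. NDB2, NAC017 and SOT12 were not called, with edgeR adjusted p-values of 0.888, 0.258 and 0.0730. The median log2 fold change of the 15 was 1.58, beside 0.05 over all loci tested. The list holds 18 genes, and AOX1D, AT12CYS-2 and AT2G04070 had too few counts for the test. AOX1D had 6, 4 and 6 counts in fusca and 2, 2 and 0 in WT. AT12CYS-2 had 3, 2 and 3 against 2, 1 and 2, and AT2G04070 had 15, 13 and 6 against 4, 4 and 1. AT2G04050 stood at 31.6 ± 8.04 CPM in fusca, 0.705 in GFP-HY5 and 0.585 ± 0.277 in WT (SD, n = 3 each; log2 fold change 5.72, edgeR adjusted p = 1.8e-06). AT2G21640 stood at 39.9 ± 14.6 CPM in fusca, 2.29 in GFP-HY5 and 1.56 ± 0.187 in WT (SD, n = 3 each; log2 fold change 4.67, edgeR adjusted p = 5.3e-06). NDB4 (AT2G20800), an alternative NAD(P)H dehydrogenase, missed the WT limit with 59, 81 and 88 counts in fusca, 7 in GFP-HY5, and 3, 5 and 3 in WT (log2 fold change 3.90, edgeR adjusted p = 2.8e-05). UGT74E2 (AT1G05680), a glucosyltransferase of an auxin, rose by 3.17 on the log2 scale (edgeR adjusted p = 1.8e-06). These 4 are the genes of the list with the largest rises, and for each all fusca libraries lay above GFP-HY5 and all WT libraries.

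On the list of methylation-silenced and imprinted genes, 15 of 21 rows had at most 3 counts in every fusca library and 15 in every WT library. Only AT4G11400 had counts enough for the test and was not called (edgeR unadjusted p = 0.267; 0 loci at an unadjusted p under 0.05 and 0 by DESeq2), so the test says little of this list. With no count filter 3 loci were called by edgeR, MEA higher in fusca (adjusted p = 0.0188) and MRU1 (adjusted p = 5.1e-05) and MPC (adjusted p = 0.0071) lower. MEA (AT1G02580), a Polycomb gene imprinted in the endosperm, had 25, 6 and 8 counts in fusca, 4 in GFP-HY5, and 1, 1 and 3 in WT. MRU1 (AT5G35490) had 0 counts in every fusca library, 10 in GFP-HY5, and 12, 7 and 16 in WT. MPC (AT3G19350) had 0 counts in every fusca library, 1 in GFP-HY5, and 3, 2 and 9 in WT. FIS2 (AT2G35670), with 7, 10 and 6 counts in fusca, 1 in GFP-HY5, and 1, 2 and 2 in WT, was not called. HDG8 (AT3G03260), with 0, 1 and 2 counts in fusca, 1 in GFP-HY5, and 3, 3 and 3 in WT, was not called either. All of these counts are low, and the genes were picked after their values were seen. FWA (AT4G25530), a homeobox gene silenced by DNA methylation in vegetative tissue, had 0, 5 and 3 counts in fusca, 2 in GFP-HY5, and 3, 1 and 2 in WT. SDC (AT2G17690), an F-box gene held off by promoter methylation, had 0, 12 and 4 counts in fusca, 8 in GFP-HY5, and 6, 8 and 7 in WT. For FWA and SDC the fusca and WT counts overlapped.

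Of the 22 genes of DNA methylation and silencing, 2 rose and 2 fell in fusca, with a median log2 fold change of 0.12. Over all loci tested 16.7% rose and 18.4% fell, so neither count stands above the general share. HDA6 (AT5G63110), a histone deacetylase, rose by 0.62 on the log2 scale (edgeR adjusted p = 0.0216) and RDR2 (AT4G11130), an RNA-dependent RNA polymerase of the small RNA pathway, by 0.60 (edgeR adjusted p = 0.0300). ROS1 (AT2G36490), a DNA demethylase, fell by 1.19 on the log2 scale (edgeR adjusted p = 0.00739) and CMT3 (AT1G69770), a DNA methyltransferase, fell by 0.84 (edgeR adjusted p = 0.00506). CMT3 stood at 21.3 ± 4.18 CPM in fusca, 45.2 in GFP-HY5 and 38.0 ± 4.57 in WT (SD, n = 3 each). With library size as the only scale, 12 of the 22 passed, all higher in fusca. Without WT replicate 2 or 3 none rose and 2 fell, and without fusca replicate 2, 5 rose and 3 fell.

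Markers of other organs were measured beside these results. The seed and embryo list summed to 3.30 to 164 CPM in fusca, 1.76 in GFP-HY5 and 3.82 to 5.95 in WT, the highest value being fusca replicate 2, and LEC1 was at 0 in every library. The pollen and flower list summed to 3.85 to 4.28 CPM in fusca, 5.02 in GFP-HY5 and 5.63 to 6.94 in WT, with 2 of 13 genes, DUO1 and AT5G07230, at 0 in every library. The root list summed to 6264 to 11748 CPM in fusca, 3339 in GFP-HY5 and 4084 to 4333 in WT, most of it PYK10. Of its 13 genes 3 were higher and 7 lower in fusca (edgeR), beside 16.7% and 18.4% of all loci tested. The part of organ makeup in the levels of the 54 genes was not tested.

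Near the limits of the choice, the members with the lowest fusca counts were CRK5, CRK6 and AT3G28560, the last with 32, 38 and 37 counts in fusca, 0 in GFP-HY5, and 0, 1 and 3 in WT. Just outside, AT1G21528 had 29, 46 and 41 counts in fusca and 0 in GFP-HY5 and every WT library, and RLP43 (AT3G28890), a receptor-like protein, had 29, 37 and 52 counts in fusca, 0 in GFP-HY5, and 1, 1 and 0 in WT. AT1G27565 and AT1G75490 had the most WT counts beside PDF1.4. AT1G27565 had 103, 174 and 82 counts in fusca, 73 in GFP-HY5, and 3, 3 and 2 in WT, and AT1G75490 had 48, 68 and 44 counts in fusca, 1 in GFP-HY5, and 2, 2 and 3 in WT. AT2G24800 lay just outside the WT limit, with 37, 34 and 33 counts in fusca, 1 in GFP-HY5, and 1, 4 and 1 in WT.

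Of 25 nuclear genes with at most 3 counts in every WT library and at least 30 in GFP-HY5, 23 are among the 54, a comparison that shares the WT libraries. The other 2 differ from each other. AT1G36078 missed by 1 count, with 41, 29 and 45 counts in fusca, 43 in GFP-HY5 and 0 in every WT library. AT1G03106 had 12, 11 and 6 counts in fusca, 75 in GFP-HY5, and 3, 0 and 1 in WT, so its GFP-HY5 count was above every fusca count.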

How the data were processed

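The authors deposited 1 table, named as sense, of raw read counts per locus for the 9 RNA-seq samples; the 20 ChIP-seq samples were not analysed here. Per the submitters' processing notes, Trim Galore, STAR, HTSeq and deepTools and the build TAIR10 were used; the annotation and settings are not given in the sources used here. The 5 rows naming no locus were left out; reads assigned to no feature made up 48.4% to 48.9% of a column. Loci were kept by filterByExpr on fusca and WT, all 54 genes among them through their fusca counts, scaled with TMM and tested with edgeR 4.0.16 in R 4.3.3 (Benjamini-Hochberg over all 21820 loci), with GFP-HY5 in the common fit as 1 library in place of 3. DESeq2 1.42.0 was an alternative. Log2 CPM used a prior count of 2. Intervals are exact conditional 95% intervals of summed counts and, like the floor of 3 counts (0.264 CPM in GFP-HY5), cover counting error only, since reads are not independent molecules.

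The RefSeq gene table of TAIR10.1 matched 28009 of 28496 nuclear identifiers and was used for names, lengths, overlaps and gene order. The genes and lists were chosen with earlier results of these data known. Named members are the 10 most abundant in fusca, the 5 highest and 5 lowest in GFP-HY5 relative to fusca, the 3 most and 3 least even across fusca, and those nearest the limits. Other members are named for a RefSeq name, a neighbour or an intermediate GFP-HY5 level, and were chosen after their values were seen, as were FWA, SDC, MEA, FIS2, HDG8, MRU1 and MPC. No family of 3 or more could be told from RefSeq symbols. From the lists up to 4 called genes per direction are named.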

Additional observations from a re-analysis of the deposited data

How the results depend on the processing

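The number of genes depends on the limits. With 0 counts in every WT library 17 genes remained of the 54, 10 with at least 30 counts in GFP-HY5 and 4 with at most 3, a median of GFP-HY5 minus fusca of -0.59 and 0 with a neighbour among them. At most 5 WT counts gave a median of -3.02 and 8 genes with a neighbour. At least 20 fusca counts gave 87 genes, 43 of them with at most 3 counts in GFP-HY5, and at least 50 gave a median of -2.18 and 2 genes with a neighbour. On TMM-scaled counts 13 genes had at most 3 in GFP-HY5, the median was -1.42 and 0 had a neighbour. The median was -3.15 with library size only and -3.19 with a prior count of 0.5. Leaving out 1 library in turn gave 59 to 65 genes, 23 or 24 with at least 30 counts in GFP-HY5, 22 to 27 with at most 3, 4 to 6 with a neighbour and medians of -2.99 to -2.15. Keeping only genes that RefSeq matched without an overlap, a choice added after seeing the data, left 47. In fusca against WT, 12762 loci passed with library size only, 79.7% of them higher, with the median shifted by 0.45, and 47.6% of the 7651 were higher; 5632 to 10896 passed without 1 library, the most without fusca replicate 2. Of the silencing genes 12 passed with library size only and 2 to 8 without 1 library. Of the methylation-silenced list 3 passed with no count filter (1 higher, 2 lower) and 0 or 1 without 1 library. Of the mitochondrial list 12 to 15 passed under every alternative. The cause of these differences was not tested. With the replicate number as a block 6588 loci passed; same-numbered fusca and WT libraries deviated with r of -0.0453, -0.115 and -0.200, so the numbers do not pair the samples. With 1 GFP-HY5 library, intervals there hold no spread between libraries.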
